A study of Homo sapiens with 8 samples.

Results

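The genes described here are the protein-coding zinc finger genes of human chromosome 19, taken as the RefSeq protein-coding genes of GRCh38 on that chromosome whose symbol is ZNF followed by a number. There were 250 of them among 20052 protein-coding genes. A peak of the deposited RBFOX2 lists was counted for a gene when its midpoint lay in the gene's span on the gene's strand. The strand was known for 219 of the 250 genes (117 on the plus and 102 on the minus strand), and these 219 are the genes analysed unless stated otherwise.

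Zinc finger genes of the C2H2 type encode DNA-binding proteins, and on chromosome 19 they lie in dense clusters that grew by tandem duplication. Many of the encoded proteins also carry a KRAB domain, which recruits the corepressor TRIM28 (KAP1) and the histone methyltransferase SETDB1 and so silences chromatin, often at retroelements. RBFOX2 is an RNA-binding protein that recognises GCAUG in RNA, mostly in introns, and regulates alternative splicing.

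RBFOX2-bound RNA was measured by eCLIP, in which ultraviolet light fixes a protein to the RNA it touches before the protein is immunoprecipitated (IP) and its RNA sequenced. The 8 libraries were 4 IP and 4 input libraries of HEK293T, an established human embryonic kidney line, with no treatment other than 254 nm light at 400 mJ/cm2. Per the labels' protocols, each input was 2% of the material of the IP with the same number. Nothing in the labels says that the 4 replicates came from separate cultures, so the p-values measure only the spread between these samples, which may be technical. The study's title concerns the reproducibility of sequencing experiments with several replicates.

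The 4 deposited peak lists, 1 for each IP against its input, held between 267691 and 288305 called peaks. Each called peak has a log2 fold of IP over input and a −log10 p, both the authors' own, and many called peaks have no enrichment. A called peak is termed enriched here when its log2 fold and its −log10 p are both at least 3. Overlapping peaks of the 4 lists (at least 1 nt, same strand) were merged into regions. The lists give no read counts, so the exact depth behind each fold is unknown. Many folds repeat a few values, such as those near 0, 1.00, 1.58 and 2.00, as ratios of small whole numbers would. How many reads lie behind them was not tested, and a low p across replicates does not show that a fold rests on many reads. How much RNA of each gene these cells hold was not analysed here.

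RBFOX2 enrichment in the chromosome 19 zinc finger genes was confined, at this threshold, to ZNF428 and a single peak of ZNF787. The lists held 924, 1049, 1052 and 1021 called peaks in these genes in replicates 1 to 4, and 3, 5, 4 and 4 of them were enriched (4.0 ± 0.816, SD, n = 4). Of these 16 enriched peaks, 15 lay in ZNF428 and 1 in ZNF787. Over all genes and lists, 0.818% of called peaks were enriched, and by list the share was 0.861%, 0.848%, 0.789% and 0.775%. The other genes stayed far from the threshold, since ZNF428 and ZNF787 were the only 2 of the 219 with any −log10 p of at least 2. These shares are of peaks. How many of all protein-coding genes hold an enriched peak was not counted here, so the count of genes has no background.

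Called peaks themselves were spread over many of the genes. At least 1 called peak was found in 158 genes and in all 4 replicates in 102 genes, while 61 had none. The matching counts over all protein-coding genes were not made, so whether these are many or few was not tested. The median over the 158 genes was 12.5 peaks summed over the 4 lists. ZNF536, a long gene without a KRAB domain known from neural differentiation, held 891 of the 4046 peaks (22.0%). The 31 genes without a known strand were read on both strands: 21 of them had a called peak, none of their 168 plus-strand and 69 minus-strand peaks was enriched, and the highest log2 fold was 2.32.

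In ZNF428, gene ID 126299, the enriched peaks sat close together in the middle of the gene. The gene spans chr19:43607224-43619629 on the minus strand, and it had 13, 11, 12 and 14 called peaks in replicates 1 to 4. Enriched peaks were present in all 4 replicates in 2 regions, chr19:43613493-43613916 (424 nt) and chr19:43613232-43613403 (172 nt). Of all 3371 regions with an enriched peak, 27.0% had one in at least 3 replicates and 16.4% in all 4.

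The longer region had log2 folds of 3.81, 4.46, 4.64 and 4.75 at its most significant peak in replicates 1 to 4, with −log10 p of 6.06, 5.53, 6.38 and 6.67. Its mean was 4.42 ± 0.42 (SD, n = 4), with replicate 1 the lowest. The shorter region had log2 folds of 4.32, 3.70, 4.25 and 3.91 and −log10 p of 4.68, 3.01, 4.68 and 3.29. All 4 replicates of both regions thus lay above the threshold, the shorter region only just so in replicate 2.

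A pair of weaker regions flanked these. The region chr19:43613950-43614136 had log2 folds of 3.46, 4.09, 1.81 and 3.0, and only its peak at chr19:43613961-43614041 in replicate 2 was enriched. The region chr19:43613007-43613144 had 3.70, 2.17, 2.7 and 2.17, and none of its peaks was enriched. In a limma fit across all 49493 regions called in every replicate, these 4 regions of ZNF428 were above 0 (adjusted p = 0.00408 for both enriched regions, 0.0102 and 0.00913 for the others). Together they spanned 1130 nt. A separate region near the gene's 3′ end, chr19:43607486-43607567, had a mean log2 fold of 0.99 and did not pass (adjusted p = 0.0599).

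The 4 regions began and ended within a short stretch whose centres lay 5.59 to 6.55 kb from the gene's 5′ end, or 45.0% to 52.8% along the span. SRRM5, a protein-coding gene of the plus strand, lies inside ZNF428 over the same stretch (chr19:43612088-43614498). No called peak lay on its strand there in any of the 4 lists, and all the peaks described were on the strand of ZNF428. Exon and intron positions were not analysed here.

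**Figure D1:**
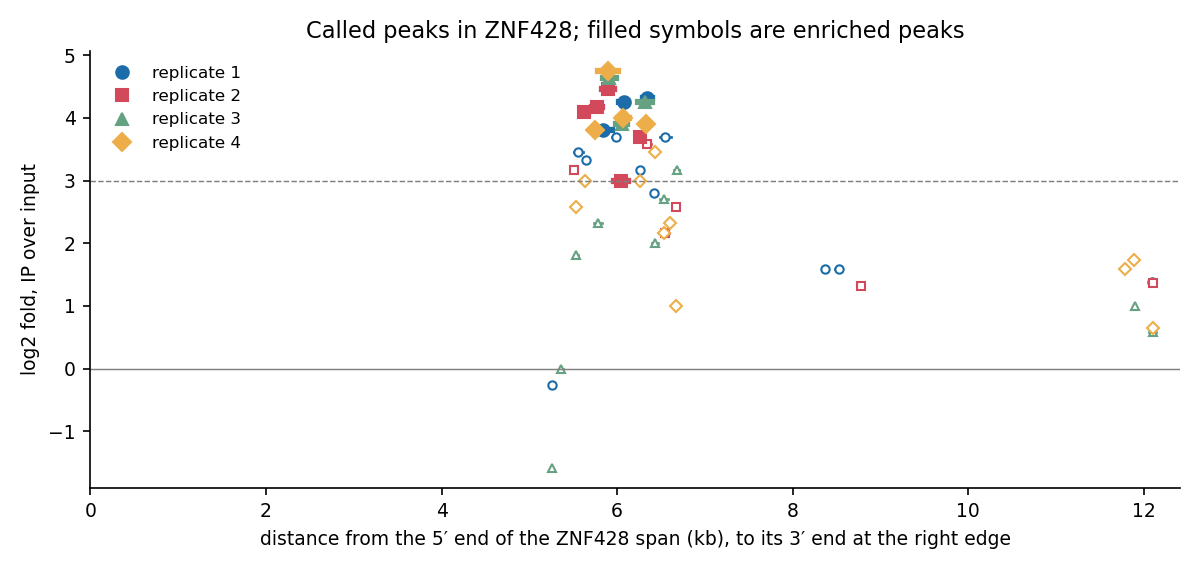
Log2 fold of IP over input (vertical axis) of every called peak in ZNF428 against its distance in kb from the gene's 5′ end (horizontal axis), with horizontal bars for peak length, symbols for the 4 replicates, filled symbols for enriched peaks and a dashed line at a log2 fold of 3. The 15 enriched peaks of the 4 replicates sit together near 6 kb, with log2 folds up to 4.75.

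The start of ZNF428 carried no called peak. Its RefSeq start window, 250 bases before to 50 after the annotated start (GRCh38.p14, chr19:43619580-43619879, minus strand), is shown because the gene holds nearly all of the enrichment, and it has no GCATG on its own strand. The start window of ZNF580 (chr19:55640752-55641051, plus strand) is shown beside it, since it was the only one of the genes' windows to hold a whole region called in all 4 replicates. Capitals in ZNF580 mark the 87 bases of that region, chr19:55640821-55640907, and no base of ZNF428 is marked.
ZNF428: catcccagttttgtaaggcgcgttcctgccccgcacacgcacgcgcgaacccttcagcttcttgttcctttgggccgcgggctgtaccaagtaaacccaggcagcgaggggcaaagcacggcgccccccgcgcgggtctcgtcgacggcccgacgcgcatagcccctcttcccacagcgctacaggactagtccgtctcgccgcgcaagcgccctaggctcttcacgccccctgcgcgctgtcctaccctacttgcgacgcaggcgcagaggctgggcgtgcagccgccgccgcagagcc
ZNF580: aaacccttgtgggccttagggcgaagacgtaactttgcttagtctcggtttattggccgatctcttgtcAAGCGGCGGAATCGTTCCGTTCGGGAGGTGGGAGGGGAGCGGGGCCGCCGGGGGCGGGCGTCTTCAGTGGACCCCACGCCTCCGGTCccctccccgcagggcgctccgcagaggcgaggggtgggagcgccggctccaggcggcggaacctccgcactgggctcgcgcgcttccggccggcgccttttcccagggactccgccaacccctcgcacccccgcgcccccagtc

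The marked region of ZNF580 had log2 folds of 0.81, 2.00, −0.58 and 1.32 in replicates 1 to 4. The replicates fell on both sides of 0, and the mean of 0.89 ± 1.1 (SD, n = 4) did not pass the limma fit (adjusted p = 0.249). The region ends before the span of ZNF580 begins, and it lies inside the span of ZNF581 on the same strand.

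The start windows were read for all genes with a strand. The 219 genes had 271 RefSeq start windows, and 40 of these held a called peak. None of their 58 peaks was enriched, and the highest log2 fold was 2.00. With 0.818% of all called peaks enriched, so small a number of peaks does not set the windows apart. The letters GCATG, the DNA form of the RBFOX2 motif, stood on the gene's strand in 48 of the 271 windows (17.7%), against 19.6% of all 35116 windows of the table. On either strand the shares were 25.8% and 29.5%. The longer TGCATG, which contains GCATG, was in 3.69% of the genes' windows and 5.23% of all windows on the gene's strand. These matches describe the windows only, and the sequences under the peaks were not analysed here.

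ZNF787, a second C2H2 gene (chr19:56087366-56121295, minus strand), had a raised mean fold over its called peaks. It held 50, 50, 47 and 47 called peaks, and the mean log2 fold of these peaks was 0.96, 0.88, 1.01 and 0.71. All 9 of its regions called in every replicate had a mean above 0, from 0.33 to 1.90, against 70.1% of all 49493 regions. Several of them lay close together between chr19:56106243 and chr19:56107142. Some crossed 0 in a single replicate, such as chr19:56115585-56115659 with −1.59 in replicate 4. Its enriched peak, chr19:56106587-56106675, was enriched in replicate 3 only (log2 fold 3.81, −log10 p 3.29). The same region had −0.42, 0.59 and 2.32 in replicates 1, 2 and 4, a spread that crosses 0. The ZNF787 region that passed the limma fit was another one, chr19:56106767-56106911, with 1.32, 1.22, 1.81 and 2.00 (adjusted p = 0.0158).

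Compared with other genes, the chromosome 19 zinc finger genes had a smaller share of enriched and of raised peaks in every replicate. The comparison was made with the other protein-coding genes of chromosome 19, with ZNF genes of other chromosomes and with all other protein-coding genes, each replicate giving a difference. The enriched share was 0.325%, 0.477%, 0.380% and 0.392% in the zinc finger genes and 1.88%, 1.78%, 1.55% and 1.59% in the other chromosome 19 genes. The groups did not overlap, and the difference was −1.30 ± 0.175 percentage points (SD, n = 4). Against all other protein-coding genes it was −0.419 ± 0.0757 percentage points, lower in 4 of 4 replicates. Against ZNF genes elsewhere, whose mean share was 0.606%, it was −0.213 ± 0.151 percentage points, also lower in 4 of 4. This last difference was −0.102 without ZNF536 and turned to 0.0336 among genes with at least 10 called peaks in each replicate, so its sign depended on the genes included.

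Raised peaks showed the same order without an enrichment threshold. A log2 fold above 0.5 was found in 28.4%, 25%, 22.7% and 26.2% of the peaks of the zinc finger genes, against a mean of 43.7% in other chromosome 19 genes. The difference was −18.1 ± 1.61 percentage points (SD, n = 4), against −3.60 ± 1.29 to ZNF genes elsewhere and −6.08 ± 1.16 to all other genes. Peaks below −0.5 were 21.8% of the total in the zinc finger genes and 19.9% in the other chromosome 19 genes. They were 24.8% in ZNF genes elsewhere and 23.8% in all other protein-coding genes. For each peak below −0.5 there were 1.18 ± 0.135 peaks above 0.5 in the zinc finger genes and 2.20 ± 0.206 in the other chromosome 19 genes (SD, n = 4). The balance in ZNF genes elsewhere was close to that of the zinc finger genes, with means of 844.5 peaks above 0.5 and 720.5 below −0.5 per replicate.

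The mean log2 fold of all called peaks was 0.14, 0.07, 0.05 and 0.08 in the zinc finger genes and 0.05 ± 0.03 (SD, n = 4) without ZNF428. In the other chromosome 19 genes the mean was 0.46, a difference of −0.37 ± 0.04. The median log2 fold was the same in both groups (difference 0.0), because it fell on the commonest fold of each list. That commonest fold, near 0, was the value of 51.5% of the peaks in the zinc finger genes and of 30.9% in the other chromosome 19 genes. Each of these differences gave p = 0.13 in a two-sided exact sign-flip permutation test over 4 replicates, the smallest p this test can give (0.146 after Benjamini-Hochberg adjustment over 21 comparisons), except that of the medians (p = 1.0). With 4 replicates this test cannot pass 0.05 for any difference.

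**Figure D2:**
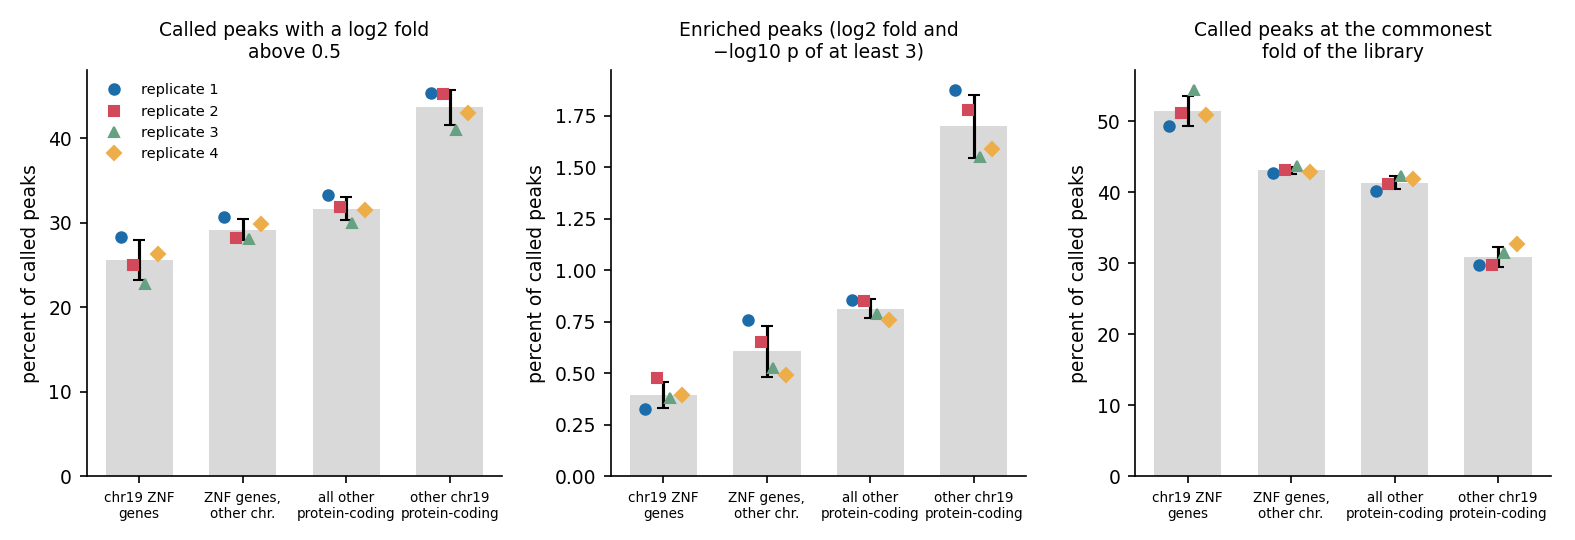
Percent of called peaks with a log2 fold above 0.5 (left), enriched (middle) and at the commonest fold of the list (right), in the chromosome 19 ZNF genes, ZNF genes of other chromosomes, all other protein-coding genes and other protein-coding genes of chromosome 19. Bars are means, whiskers are SD and symbols are the 4 replicates. The chromosome 19 ZNF genes have the lowest mean in the left and middle panels (25.6% and 0.393%) and the highest in the right panel (51.5%).

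The density of the peaks and their sharing between replicates are given as values without a test. There were 14.2 to 16.1 called peaks per 100 kb of span in the zinc finger genes, against 40.5 to 41.9 in the other chromosome 19 genes. Of the peaks, 12.3% ± 0.950 (SD, n = 4) lay in a region called in all 4 replicates, against 29.5% in the other chromosome 19 genes and 19% in ZNF genes elsewhere. Those found in 1 replicate only made up 49.1% ± 1.88, against 33.4% and 43.9%. ZNF genes elsewhere had 25.2 to 27.8 called peaks per 100 kb and all other protein-coding genes 19.7 to 21.2. The part of density, of the peaks at the commonest fold and of sharing in the enriched share was not tested.

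The fit over regions gave 11 higher and 3 lower regions among the 112 tested in the zinc finger genes, at an adjusted p of at most 0.05. Over all 49493 regions, 21.1% were higher and 1.81% lower, and the corresponding shares here were 9.82% and 2.68%. In the other chromosome 19 genes 31.5% of 2056 regions were higher. Without ZNF428, 7 of 107 regions (6.54%) were higher. The median mean log2 fold was 0.44 here and 0.50 over all regions. A region took the fold of its most significant peak, with ties going to the higher fold. This choice can raise the folds of regions and the share called higher. The mean over all called peaks of the zinc finger genes was 0.09. The calls rested on 4 replicates: with replicate 1, 2 or 4 left out, limma called 0 of the genes' regions and 0 higher regions in the whole genome. With an unadjusted p under 0.05, 23 of 177, 23 of 145 and 31 of 161 of the genes' regions were then higher and 8, 5 and 4 lower, beside 31 of 112 higher and 5 lower with all 4 replicates. Without replicate 3, 6 of the genes' regions were higher, as were 3.77% of all regions.

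Outside ZNF428, the 7 higher regions had mean log2 folds of 1.04 to 2.51, and no −log10 p in any single list exceeded 1.41. The region with the highest mean was in ZNF536 (chr19:30225592-30713586, plus strand), at chr19:30452966-30453082, 227 kb from the gene's start. It had 2.32, 2.59, 2.81 and 2.32 in replicates 1 to 4, with low −log10 p of 0.66, 1.15, 1.41 and 0.66. The mean was 2.51 ± 0.24 (SD, n = 4; limma adjusted p = 0.00527). The remaining higher regions, named after their values were seen, lay in ZNF787, in the overlapping ZNF69 and ZNF700 (mean 1.58), in ZNF254 (1.55), in ZNF333 (1.5), in the overlapping ZNF580 and ZNF581 (1.23) and in ZNF837 (1.04).

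The 3 lower regions, where input exceeded IP, were in ZNF121 and ZNF714, and their −log10 p was 0.0 in every list. Negative folds among the genes' tested regions always had a −log10 p of 0.0, so that value does not measure how far input exceeded IP. The ZNF121 region, chr19:9561833-9561897, had log2 folds of −1.22, −3.58, −1.26 and −3.46, with replicates 2 and 4 far below 1 and 3 (mean −2.38 ± 1.32, SD, n = 4; limma adjusted p = 0.0360). In ZNF714 the region chr19:21123845-21123926 had −2.0, −2.0, −1.0 and −2.0 (adjusted p = 0.0162). It lay 97.2% along the span, close to the gene's 3′ end. The other ZNF714 region, chr19:21105994-21106071, had −1.0, −1.0, −0.58 and −1.0 and only just passed (adjusted p = 0.0499).

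Averaging all called peaks of a gene allowed 40 of the zinc finger genes to be compared with 0, those with at least 5 called peaks in each replicate. By limma, 7 were higher (17.5%) and 2 lower (5.0%), against 22.8% and 7.52% of all 6958 genes tested. The other chromosome 19 genes had 44.0% of 357 higher, and ZNF genes elsewhere 18.4% of 125. The median gene mean was −0.07 in the zinc finger genes and 0.06 over all genes. Above 0 were 17 of the 40 (42.5%), against 58.6% of all genes and 77.3% of the other chromosome 19 genes. ZNF69 and ZNF700 are counted separately among the 40 although they hold the same called peaks. So are ZNF580 and ZNF761, whose spans lie inside those of ZNF581 and ZNF765-ZNF761 and share their peaks.

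ZNF428 stood first of the 40, with gene means of 2.83, 3.06, 2.07 and 2.71 (2.67 ± 0.42, SD, n = 4; limma adjusted p = 5.1e-05). It lay above 99.6% of all genes in the fit. ZNF787 followed with 0.89 ± 0.13 (adjusted p = 0.000316), and its replicates did not overlap those of ZNF428. Both passed whichever replicate was left out, with adjusted p from 0.000269 to 0.000711 and from 0.00146 to 0.00319. The other higher genes were ZNF709 (0.44), ZNF581 (0.44), ZNF274 (0.40), ZNF333 (0.37) and ZNF440 (0.31), with adjusted p from 0.0154 to 0.0404. ZNF274 and ZNF440 did not pass with any 1 replicate left out, and the other 3 failed in at least 1 such fit. The gene fit was chosen after the data were seen.

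The lower genes were ZNF121 and ZNF791. ZNF121 had −0.05, −1.16, −0.55 and −0.61 (mean −0.59 ± 0.45, SD, n = 4; limma adjusted p = 0.0365), so that replicate 1 was near 0 and replicate 2 well below the others. It passed only in the fit without replicate 1 when a replicate was left out (adjusted p = 0.0149, otherwise 0.0876 to 0.105). ZNF791 had −0.37, −0.32, −0.11 and −0.26 (mean −0.27; adjusted p = 0.0380), all below 0. It passed only in the fit without replicate 3 when a replicate was left out (adjusted p = 0.0449, otherwise 0.108 to 0.128).

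**Figure D3:**
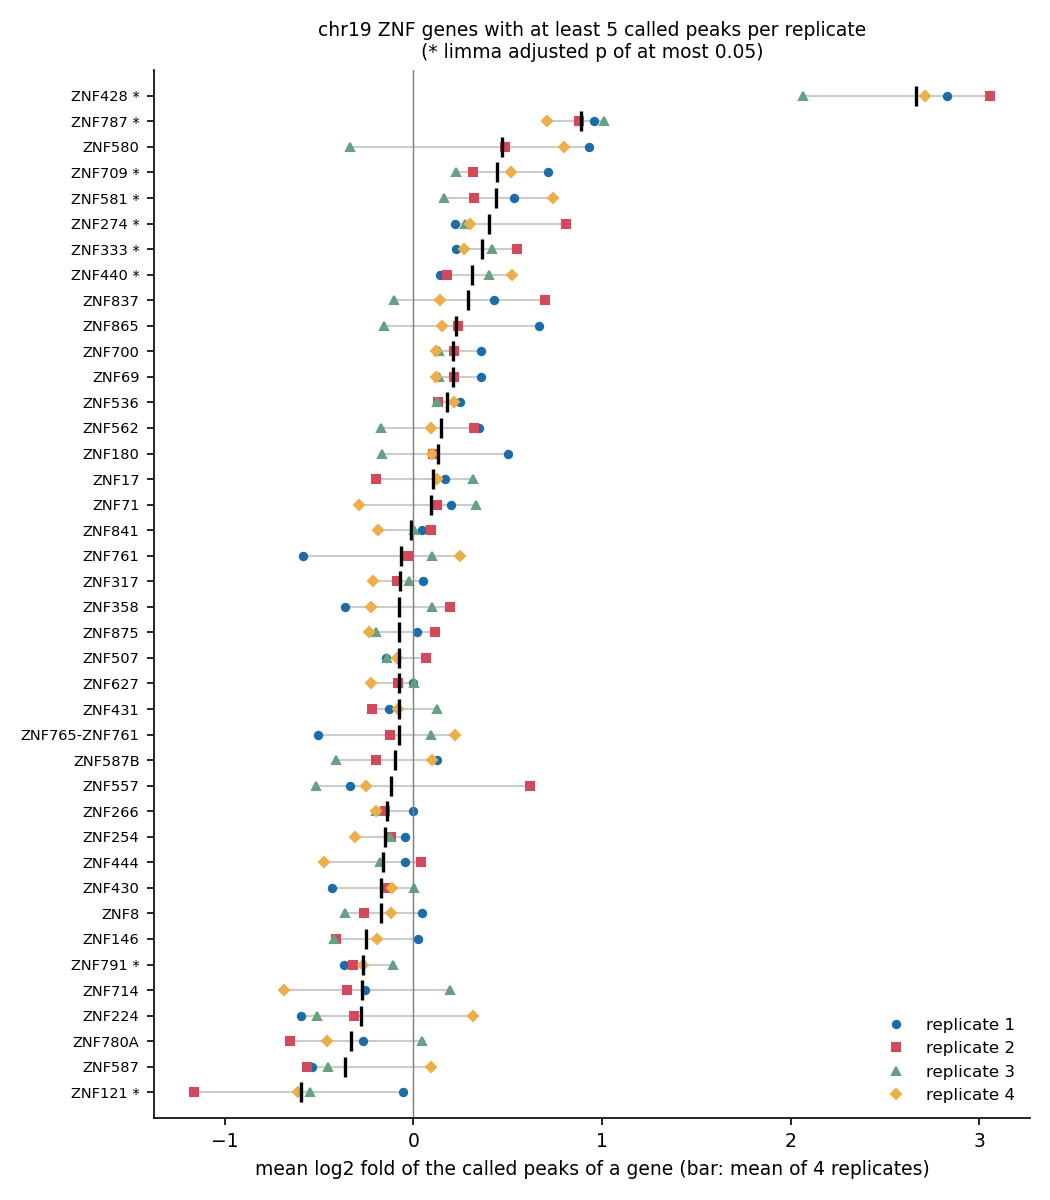
Mean log2 fold of the called peaks of each of the 40 chromosome 19 ZNF genes with at least 5 called peaks in every replicate, sorted by the mean of the 4 replicates (black bar). Symbols are the replicates, grey lines their range, and a star marks a limma adjusted p of at most 0.05. ZNF428 lies apart at 2.67, followed by ZNF787 at 0.89, and the lowest is ZNF121 at −0.59.

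Zinc finger genes with a known role were read from a list of 15, of which 13 had a known strand. Of these 13, 5 had no called peak in any list: ZNF93, a repressor of L1 retrotransposons, ZNF808, ZNF528, ZNF208 and ZNF43. Among all 219 zinc finger genes with a known strand, 61 had none. ZNF91, a repressor of SVA retroelements, had 1 called peak in replicate 3 at a log2 fold near 0 (0.00). ZNF765, ZNF675 and ZNF568, the last known for silencing a placental transcript of IGF2 through its mouse counterpart, had 6, 5 and 5 called peaks over the 4 lists and −log10 p of 0.0. No gene of the list had an enriched peak, and its highest −log10 p was the 1.41 of ZNF536. For ZNF649 and ZNF417, whose strand was not known, 14 and 17 peaks were found on the minus strand, with log2 folds up to 1.00 and 2.00, and 0 on the plus strand.

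The 4 genes of this list with enough peaks for the gene fit gave mixed values. ZNF274 binds the 3′ ends of zinc finger genes and recruits SETDB1 there. It had 0.22, 0.81, 0.27 and 0.30, with replicate 2 well above the rest. ZNF536 had 0.25, 0.13, 0.12 and 0.21 (mean 0.18 ± 0.06, SD, n = 4), all above 0, and did not pass (limma adjusted p = 0.0970). ZNF587, which acts on endogenous retroviruses, had −0.54, −0.57, −0.45 and 0.10, crossing 0 in replicate 4 (limma adjusted p = 0.0669). ZNF224, a repressor of the aldolase A gene, had −0.60, −0.32, −0.51 and 0.32 and likewise crossed 0 (adjusted p = 0.224).

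The partners of KRAB proteins were read from a list of 16 cofactor genes outside the zinc finger family. All 15 with a known strand entered the gene fit, with 2 higher and 4 lower, beside 22.8% and 7.52% of all genes, and a median of −0.13. The higher ones were CHD3, a chromatin remodeller of the NuRD complex (mean log2 fold 1.26, limma adjusted p = 0.000176), and the DNA methyltransferase DNMT1 (0.55, adjusted p = 0.00251). The lower ones were CBX5 (−0.56), which encodes the heterochromatin protein HP1 alpha, UHRF1 (−0.36), MORC2 (−0.32) and PPHLN1 (−0.28), with adjusted p from 0.00874 to 0.0219. Among the cofactors' 120 tested regions, 14 were higher and 2 lower, beside 21.1% and 1.81% of all regions. DNMT1 had 3 regions and CHD3 had 2 with an enriched peak in some replicate, and no cofactor gene had a region enriched in all 4 replicates. Of all 3371 regions with an enriched peak, 16.4% were enriched in all 4, so these few regions do not set the cofactors apart. How many of all genes hold a region with an enriched peak was not counted.

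By position on the chromosome, the enriched peaks lay in single genes, and the raised mean of the cluster holding ZNF428 rested on that gene. Runs of zinc finger genes with gaps under 1000000 nt formed 16 clusters. The cluster of 24 genes from ZNF575 to ZNF296, which includes ZNF428, had a mean log2 fold of 0.72 ± 0.18 (SD, n = 4), and without the peaks of ZNF428 it was −0.00 ± 0.03. The remaining clusters of at least 16 genes had means from −0.15 to 0.18. The highest of these, 0.18 ± 0.07, was the cluster of 60 genes from ZNF628 to ZNF446, which holds ZNF787. Its mean without ZNF787 was not computed. The 37 genes from ZNF101 to ZNF254 had −0.15 ± 0.08, and only 13 of their 29 genes with a strand had a called peak. The 26 genes from ZNF565 to ZNF573 had a called peak in 24 of 25, and a mean of −0.06 ± 0.06.

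Within the genes, the log2 fold of called peaks was lowest in the part nearest the 3′ end. In the C2H2 family the zinc finger array is usually encoded by the last exon. Each span was divided into 5 equal bins from its 5′ end, which held 24.9%, 21.4%, 19.4%, 18.4% and 15.9% of the zinc finger genes' peaks. Without ZNF536 the bins held 22.0%, 19.2%, 18.2%, 20.6% and 19.9%, so the fall along the span rested largely on that gene. In the other chromosome 19 genes the bins held 22.7%, 16.7%, 17.3%, 20.2% and 23.1%, with the most in the last bin. The mean log2 fold was 0.29 ± 0.02 in bin 3, which contains most ZNF428 peaks, and 0.14 ± 0.04 there without ZNF428 (SD, n = 4). In bin 5 it was −0.11 ± 0.06, against 0.45 ± 0.07 in the other chromosome 19 genes.

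The last bin minus the other bins was −0.24 ± 0.05 in the zinc finger genes (SD, n = 4) and −0.21 ± 0.05 without ZNF428, and −0.22 ± 0.06 without ZNF536, lower in 4 of 4 replicates each time (two-sided exact sign-flip permutation p = 0.13, the smallest possible). In the other chromosome 19 genes it was −0.01 ± 0.03, lower in 2 of 4 (exact p = 0.625). This contrast of bin 5 was chosen after the values of the bins were seen.

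**Figure D4:**
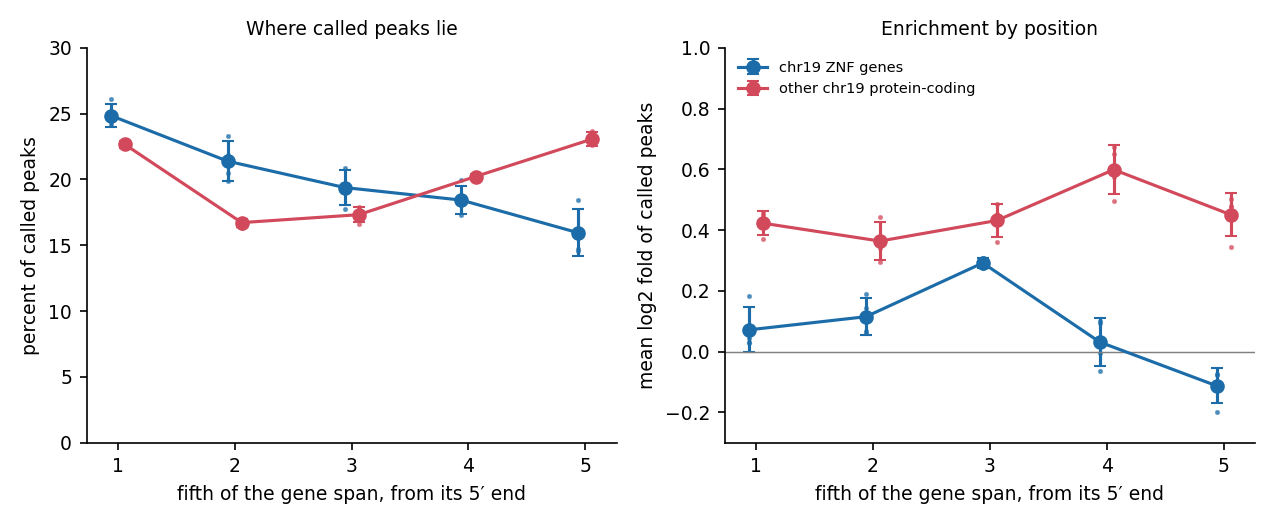
Percent of called peaks (left) and their mean log2 fold (right) in 5 equal bins of the gene span, counted from the 5′ end, for the chromosome 19 ZNF genes and the other protein-coding genes of chromosome 19. Large points are means with SD, small points the 4 replicates. In the last bin the ZNF genes have 15.9% of their peaks at a mean of −0.11 and the other genes 23.1% at 0.45.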

How the data were processed

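RBFOX2 eCLIP peaks of 4 IP libraries against their inputs in HEK293T cells were analysed. Per the submitters' processing notes, UMI-tools 1.1.1, cutadapt 3.2 and STAR 2.7.7a were used, with hg38 and GRCh38.p13 named as builds. The peak caller, its p-value test, the scaling between IP and input and any pooling are not given in the sources used here. Without a header in the deposited lists, the values themselves gave the units, a −log10 p (at most 400) and a log2 fold made by the authors for each peak. Comparing lists assumes the same scaling in each.

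Gene spans came from RefSeq GRCh38.p14, and strands from its start-window table, which lacks 31 of the 250 genes. No genome sequence was used. Peaks were assigned by midpoint and strand, and peaks inside a chromosome 19 ZNF span were left out of the comparison groups. Regions called in all 4 replicates (log2 fold of the peak with the highest −log10 p) and genes with at least 5 called peaks per replicate (mean log2 fold) were fitted with limma 3.58.1 in R 4.3.3 (intercept only, eBayes, two-sided, Benjamini-Hochberg over the whole table, 0.05). Group differences used exact sign-flip permutation tests in Python 3.11.15 (numpy 2.4.6, pandas 2.3.3, scipy 1.17.1). The procedures were tested on simulated data.

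Genes were named when their strongest region was enriched in at least 2 replicates, when they were on the list of known roles or when a region was lower; others were named after their values were seen. The members and lists were chosen with earlier results of these data known. Thresholds, strand, overlapping spans, single replicates and single genes were varied.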

Additional observations from a re-analysis of the deposited data

Results flagged for a closer look

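A single replicate stood apart from the other 3 in 3 of the 30 regional and gene values examined. Folds are often tied between lists, as in the ZNF714 regions below, so the usual rate of about 1 in 20 does not apply. In the ZNF714 region chr19:21105994-21106071 this was replicate 3, at a log2 fold of −0.58 against −1.0 in each of the others. In the ZNF714 region chr19:21123845-21123926 it was again replicate 3, at −1.0 against −2.0. In ZNF274 the gene mean of replicate 2 was 0.81 against 0.22 to 0.30.

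Signal was also found on the strand opposite to zinc finger genes. The lists held 43, 49, 54 and 53 called peaks there. These include the 18, 26, 26 and 23 peaks of ZNF146, whose span lies inside that of ZNF565 on the other strand. The comparisons do use the ZNF146 peaks, as peaks of that gene's own strand. In each list 1 opposite-strand peak was enriched, 4.0 peaks in all. All of these enriched peaks lay at one place in ZNF446 (chr19:58476352-58489533, plus strand), on the minus strand, and the comparisons do not use them. Their bounds were chr19:58479783-58479932 in replicate 1, chr19:58479790-58479938 in replicate 2, chr19:58479791-58479929 in replicate 3 and chr19:58479795-58479941 in replicate 4. The log2 folds were 4.46, 3.39, 3.17 and 4.70 (mean 3.93 ± 0.76, SD, n = 4), with −log10 p of 5.24, 4.45, 3.66 and 6.38. This is of the size seen in ZNF428, and no other gene span of the table with a known strand covers the site.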

How the results depend on the processing

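The enriched peaks per replicate (4.0) became 1.0 at a −log10 p of at least 5 and on the opposite strand, 0.25 without ZNF428 and 6.75 with no limit on p, and were 3.67 to 4.33 with a replicate left out. Regions enriched in at least 3 replicates (2) became 1 at a −log10 p of at least 5 and 4 when any called peak counted. The enriched share minus that of other chromosome 19 genes stayed negative except on the opposite strand (0.471 percentage points, exact p = 0.25). Against ZNF genes elsewhere it was 0.910 there (exact p = 0.375) and 0.0336 with at least 10 called peaks per gene and replicate (exact p = 0.75). The median difference became −0.20 under that last setting (exact p = 0.5), and 3 genes were then higher by limma. With a replicate left out, limma gave 0 to 6 higher and 0 to 1 lower regions, and 3 to 5 higher and 1 to 3 lower genes. All 14 called regions passed with the highest fold of a region in place of that of its most significant peak. This setting is a weak check, because it left the mean log2 fold of most of these regions unchanged. Only the ZNF428 regions starting at base 43613493 (mean 4.42, then 4.53) and base 43613007 (2.69, then 2.72) changed. The differences in mean log2 fold and in peaks above 0.5 kept their sign in every setting. The settings without ZNF428 or ZNF536, with members of unknown strand, without a limit on p, with at least 10 peaks, the gene fit and both these measures were chosen after the data were seen. GCATG under peaks with its alternatives, exon classes and counts of zinc fingers were not run, as no genome or protein table was used. No paired analysis was possible because every fold is taken within an IP and input pair, which leaves no input value to block. Without counts, what depth limits cannot be given.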
